A study of Homo sapiens with 4 samples.

Results

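The 10 genes described here encode the E2F transcription factors (E2F1 to E2F8) and their DP partners (TFDP1 and TFDP2). They were taken by gene name from the scanner files, with all their probes, and made up 10 of 43317 gene names, or 15 of 58201 gene probes, on each array. Their messenger RNA was measured on 1-colour Agilent arrays. Cells of 2 human cancer lines had received either the microRNA miR-891b or a negative control RNA, NC1, by transfection using Dharmafect1. The 4 groups were HCT116 (colorectal cancer) with NC1, HCT116 with miR-891b, A549 (lung cancer) with NC1 and A549 with miR-891b, and each was 1 array of 100 ng of total RNA. Per the labels, HCT116 cells grew in McCoy's 5A medium and A549 cells in DMEM. The transfected dose and the time to harvest are not given in the sources used here. With 1 array per group there is no replicate check within a line and no p-value for one, so a change of 2-fold or more is counted by size.

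Heterodimers of an E2F protein and a DP protein bind promoters of genes needed to enter S phase. E2F1, E2F2 and E2F3 act mainly as activators and are held inactive by the retinoblastoma protein until cyclin-dependent kinases release them. E2F4 and E2F5 work mainly as repressors with the pocket proteins p107 and p130, and E2F6 represses with Polycomb-like complexes. E2F7 and E2F8, the atypical members, bind DNA without a DP protein and repress E2F targets late in S phase, while they are themselves E2F targets. Arrays report the RNA of these genes and not the amount or activity of the proteins.

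Between 44.7% and 50.3% of gene probes were well above background per array, and 0 gene spots were saturated. Levels below are log2 processed signals from which each array's own 75th percentile was subtracted, so they compare a probe between arrays and not 1 probe with another. Changes are the log2 level with miR-891b minus that with NC1. The 6 A549 markers were all higher in A549 than in HCT116 with NC1 (differences of 2.36 to 14.2) and the 4 HCT116 markers all lower (-6.75 to -3.13). Of 7 fibroblast genes, 2 were well above background on each HCT116 array and 4 on each A549 array, with summed signals of 125 to 145 in HCT116, 319 in A549 with NC1 and 782 in A549 with miR-891b. In A549 with NC1 and miR-891b, the levels of LUM, a proteoglycan, were 1.03 and 3.17, those of THY1 -1.47 and -2.51, those of COL1A1 0.60 and 0.01 and those of PDGFRB -1.85 and -1.89. The genes COL1A2, COL3A1 and DCN were not well above background on any array. Of 4 leukocyte genes, PTPRC and CD14 were above background throughout, and the summed signals were 35.6 and 35.4 in HCT116 and 229 and 168 in A549, with NC1 first. The part of these markers in the changes below was not tested. The arrays of a line shared a slide, per the file headers, so line and slide cannot be told apart.

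The transfected microRNA is shown with its seed, bases 2 to 8, in capitals, because the seed pairs with transcripts (RefSeq, GRCh38.p14, chrX:146001100-146001121, minus strand).
hsa-miR-891b: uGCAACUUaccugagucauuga
The DNA letters that pair with this seed, AAGTTGC, occurred in 0 of the 15 member probes and in 229 of 58201 gene probes (0.393%). A probe covers only 60 bases of a transcript, so this says nothing of the rest of each transcript.

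E2F genes can be targets of E2F proteins themselves, and the letters of E2F sites in their promoters are shown for that reason. The 250 bases before each RefSeq transcription start were searched on both strands for TTTCCCGC, TTTGGCGC, TTTCGCGC and TTTGCCGC, counted as 1 motif. They differ only in the fourth and the fifth letter, and in the member promoters no match overlaps a match of the other motifs given below. Promoters of 8 of the 10 genes were in the table, E2F5 and E2F8 being the others. The last 150 of these bases are printed 5′ to 3′, ending at the base before the start, with the matches in capitals, for E2F1 at chr20:33686386-33686535, minus strand, E2F2 at chr1:23531234-23531383, minus strand, E2F3 at chr6:20401729-20401878, plus strand, TFDP1 at chr13:113584603-113584752, plus strand, E2F4 at chr16:67192005-67192154, plus strand, E2F6 at chr2:11466162-11466311, minus strand and E2F7 at chr12:77065570-77065719, minus strand (GRCh38.p14).
E2F1: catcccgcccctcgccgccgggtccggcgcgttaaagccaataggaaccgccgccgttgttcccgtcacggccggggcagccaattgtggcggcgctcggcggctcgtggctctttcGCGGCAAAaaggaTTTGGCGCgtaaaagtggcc
E2F2: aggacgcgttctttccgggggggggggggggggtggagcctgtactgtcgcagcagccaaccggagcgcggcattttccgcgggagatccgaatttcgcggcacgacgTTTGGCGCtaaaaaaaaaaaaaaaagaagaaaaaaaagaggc
E2F3: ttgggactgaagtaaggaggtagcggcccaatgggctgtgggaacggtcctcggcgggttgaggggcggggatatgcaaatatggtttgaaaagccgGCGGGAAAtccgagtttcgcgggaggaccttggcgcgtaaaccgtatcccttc
TFDP1: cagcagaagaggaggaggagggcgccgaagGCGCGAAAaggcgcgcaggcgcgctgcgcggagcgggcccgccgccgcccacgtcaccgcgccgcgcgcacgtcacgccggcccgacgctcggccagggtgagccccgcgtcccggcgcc
E2F4: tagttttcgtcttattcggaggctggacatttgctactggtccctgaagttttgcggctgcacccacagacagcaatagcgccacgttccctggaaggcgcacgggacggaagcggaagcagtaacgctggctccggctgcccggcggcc
E2F6: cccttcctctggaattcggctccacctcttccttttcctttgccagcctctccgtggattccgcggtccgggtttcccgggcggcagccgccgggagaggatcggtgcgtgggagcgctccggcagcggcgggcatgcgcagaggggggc
E2F7: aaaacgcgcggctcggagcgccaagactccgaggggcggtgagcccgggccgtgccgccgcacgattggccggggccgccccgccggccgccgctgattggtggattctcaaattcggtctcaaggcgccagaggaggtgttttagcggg
E2F1 had 2 matches, from 33 to 26 and from 20 to 13 bases before the start. E2F2 had 1, from 42 to 35 bases before it, E2F3 had 1 at the start shown, from 53 to 46 bases before it, and TFDP1 had 1, from 120 to 113 bases before it. E2F4, E2F6, E2F7, all 3 starts of TFDP2 and a second start of E2F3 had 0 in the 250 bases. A match was thus found in 4 of 11 member promoters, in 11 of 33 promoters of the G1/S target genes listed below (22 of 26 genes in the table) and in 979 of 35116 promoters in all (2.79%). The letters CCAAT, the core of the site bound by NF-Y, were in 4 of the 11 member promoters, with 4 copies in E2F7, 4 in E2F3, 3 in E2F1 and 2 at 1 start of TFDP2. CCAAT was in 23 of the 33 G1/S target promoters and in 32.0% of all promoters. TTTGAA, the core of the cell cycle homology region, was in 3 of the 11 member promoters (1 start of E2F3 and 2 of TFDP2). It was in 1 of the 33 G1/S target promoters and in 13.3% of all promoters. These matches describe letters and do not show binding.

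The E2F genes did not move together in A549 cells. With miR-891b, the activators E2F1 and E2F2 and the atypical E2F7 and E2F8 had between 16.4% and 36.9% of their NC1 signal. E2F3 and TFDP2 each had 74.1% of it, TFDP1 was close to them, and the repressors E2F4, E2F5 and E2F6 had 109% to 165%. In HCT116 no member was past 2-fold, with signals of 86.6% to 124% of NC1. All 10 genes were measured, since the probe shown for each exceeded background on every array. In A549, 4 of the 10 were at least 2-fold lower and 0 at least 2-fold higher, where 5.57% of all 21336 measured genes were at least 2-fold lower and 4% at least 2-fold higher. In HCT116 the counts were 0 and 0, where 0.843% of 19105 genes were lower and 1.16% were higher. The median change of the 10 genes was -0.43 in A549 and 0.15 in HCT116, beside -0.06 and -0.04 over all measured genes. In a population of cells, fewer cells in a cycle phase and less RNA per cell cannot be told apart.

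**Figure D1:**
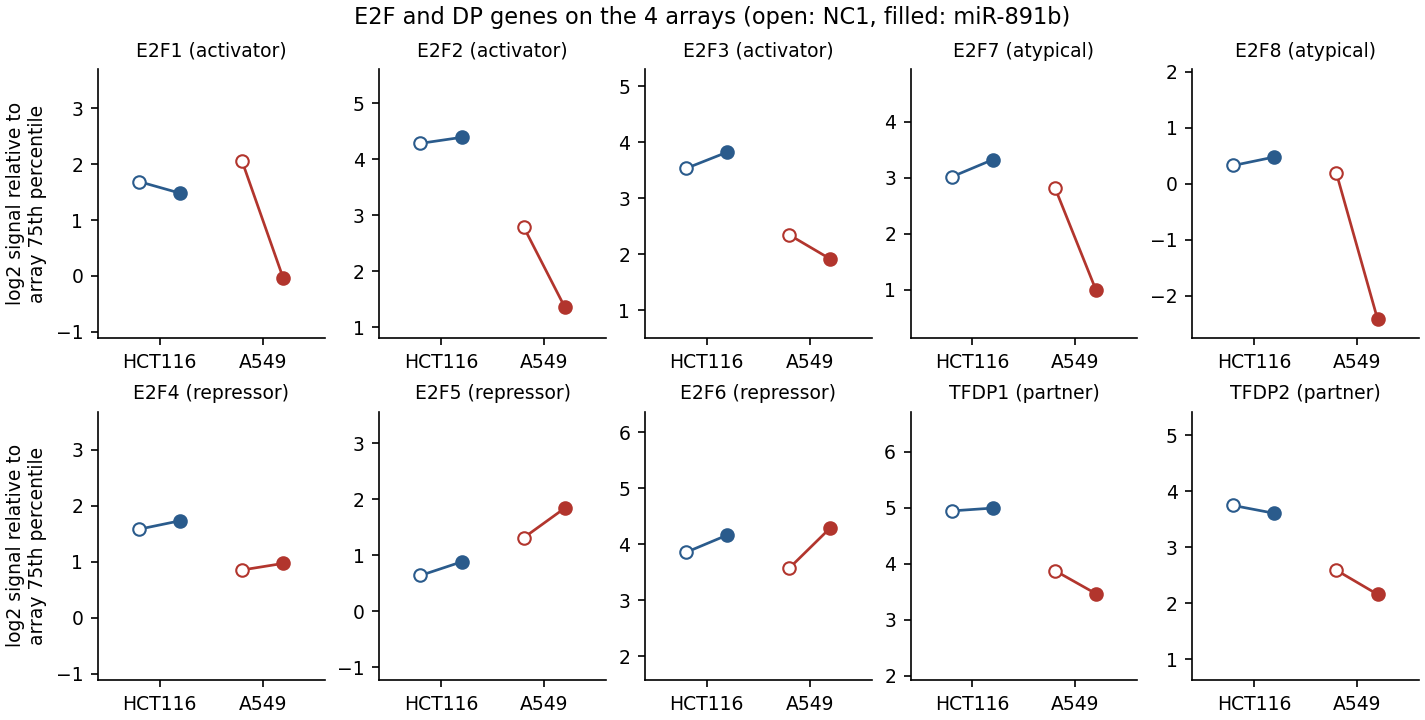
The y axis gives the log2 level of each gene's probe, with the 75th percentile of its array at 0, with 1 array per point, NC1 open and miR-891b filled, HCT116 in blue and A549 in red. Each panel spans the same number of log2 units. E2F1, E2F2, E2F7 and E2F8 are far lower with miR-891b in A549 and within 2-fold in HCT116, while E2F4, E2F5 and E2F6 are higher with miR-891b in both lines. In HCT116 8 of the 10 genes are higher with miR-891b, beside 44.5% of all measured genes.

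E2F1, the founding activator and the member most closely tied to release from the retinoblastoma protein, was printed on 10 spots per array (hg19 chr20:32263989-32264048, minus strand). Its log2 levels were 1.69 in HCT116 with NC1, 1.48 in HCT116 with miR-891b, 2.05 in A549 with NC1 and -0.04 in A549 with miR-891b. The A549 miR-891b array was thus far below the other 3, which lay close together. On the intensity scale, the A549 NC1 spots ran from 284 to 330 with a median of 314, and the A549 miR-891b spots from 65.4 to 77.5 with a median of 72.1, with no overlap. The HCT116 spots ran from 169 to 193 with NC1 and from 150 to 174 with miR-891b, and these ranges overlapped. The change over spots was -2.09 ± 0.10 (SD over 9 spots) in A549 and -0.21 ± 0.10 (SD over 10 spots) in HCT116. Spots share 1 RNA and 1 labelling, so this SD covers the array only. In each line 1 E2F1 spot on the miR-891b array lay in an area of stray signal. In A549 it was already left out as an outlier, and without it the HCT116 change was -0.19. Among the 21336 genes measured in A549, the change of E2F1 ranked 79 from the lowest.

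E2F2, the activator with the narrowest range of tissues, had levels of 4.29 and 4.39 in HCT116 with NC1 and miR-891b, and of 2.80 and 1.36 in A549. The A549 cells started lower and went lower still, with a change of -1.44 against 0.11 in HCT116. The E2F2 spot on the A549 miR-891b array lay in an area of stray signal, where 17.5% of the surrounding spots that are dim elsewhere were bright. Apart from the single E2F1 spots it was the only member spot in such an area, and leaving such probes out made the A549 count 3 of 9 genes.

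E2F3, the activator with alternative promoters, was measured by 2 probes. The brighter probe had levels of 3.53 and 3.83 in HCT116 and of 2.35 and 1.91 in A549, with NC1 first. Its changes were 0.29 and -0.43. The dimmer probe, with signals of 17.7 to 24.6 on the 4 arrays, changed by 0.33 in HCT116 and by -0.07 in A549. The probes were alike in HCT116, while in A549 the dimmer one moved less. E2F3 was the activator least changed in A549.

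The atypical members are both feedback repressors. E2F8 had levels of 0.32 and 0.48 in HCT116 and of 0.19 and -2.42 in A549, with NC1 first (hg19 chr11:19245675-19245734, minus strand). With NC1 the lines were nearly level, and only the A549 miR-891b array stood apart. Its A549 change of -2.61, to 16.4% of the NC1 signal, was the lowest of the family and ranked 15 from the lowest among the 21336 measured genes. Its HCT116 change was 0.15. The signal of 13.9 on the A549 miR-891b array is low, and with normexp background correction (offset 50) and quantile normalization the A549 change was -1.004, less than those of E2F1 (-1.42), E2F7 (-1.40) and E2F2 (-1.20), so its place as the lowest is lost there.

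E2F7 had levels of 3.01 and 3.32 in HCT116 and of 2.82 and 0.99 in A549 by its brighter probe (hg19 chr12:77415520-77415579, minus strand), with changes of 0.31 and -1.84. As for E2F8, 3 arrays were close together and the A549 miR-891b array was low. Its dimmer probe had signals of 8.02 and 8.47 in HCT116 and 10.1 in A549 with NC1, and it was not well above background in A549 with miR-891b. By that probe E2F7 was at least 2.07-fold lower in A549, a bound set by that array's lowest signal above background, and it changed by 0.02 in HCT116.

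**Figure D2:**
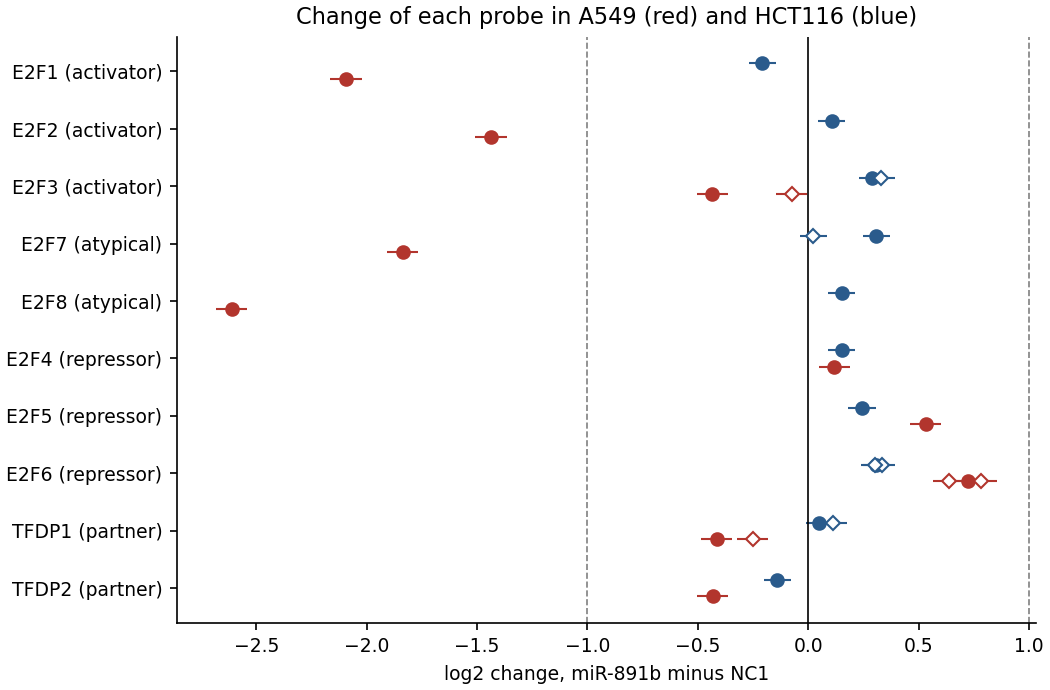
The x axis gives the log2 change, miR-891b minus NC1, of every member probe well above background on both arrays of a line (A549 red, HCT116 blue). Filled circles are the probe shown for a gene and open diamonds its other probes, bars are the median SD between replicate spots (0.07 in A549, 0.06 in HCT116), and dashed lines mark 2-fold. In A549 the 4 genes past the lower line are E2F1, E2F2, E2F7 and E2F8.

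The repressors were higher with miR-891b in both lines, and none reached 2-fold. In HCT116 the rise was not particular to them, since 8 of the 10 members were above 0, beside 44.5% of all measured genes. E2F7 (0.31), E2F3 (0.29) and E2F8 (0.15) were among these. E2F6, the pocket-independent repressor, gave levels of 3.86 and 4.17 in HCT116 and of 3.57 and 4.30 in A549 by its brightest probe. Its 3 probes changed by 0.31, 0.33 and 0.30 in HCT116 and by 0.72, 0.64 and 0.78 in A549, so they differed little among themselves. E2F5, a partner of p130, had levels of 0.64 and 0.88 in HCT116 and of 1.31 and 1.84 in A549, with changes of 0.24 and 0.53. E2F4, the most widely expressed E2F in many tissues, had levels of 1.58 and 1.73 in HCT116 and of 0.85 and 0.97 in A549. Its changes were 0.15 and 0.12, the smallest difference between the lines of any member. The E2F4 probe maps across 280 bases of hg19 with 60 bases of its own, so it crosses at least 1 intron. Over all genes measured, 7.81% had a higher A549 change than E2F6, 12.7% a higher one than E2F5 and 34.6% a higher one than E2F4. In HCT116, 12.8% had a higher change than E2F6, 17.2% than E2F5 and 25.6% than E2F4.

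The DP partners, which give the classical E2F proteins their stable grip on DNA, were within 2-fold in both lines. TFDP1 had levels of 4.95 and 5.00 in HCT116 and of 3.88 and 3.46 in A549 by its brighter probe, with changes of 0.05 and -0.41. A second TFDP1 probe, which also spans more of the genome (465 bases) than its own length, changed by 0.11 and -0.25. TFDP2 had levels of 3.75 and 3.61 in HCT116 and of 2.59 and 2.16 in A549, with changes of -0.14 and -0.43. In A549, 22.1% of measured genes had a lower change than TFDP2 and 22.9% a lower one than TFDP1.

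**Figure D3:**
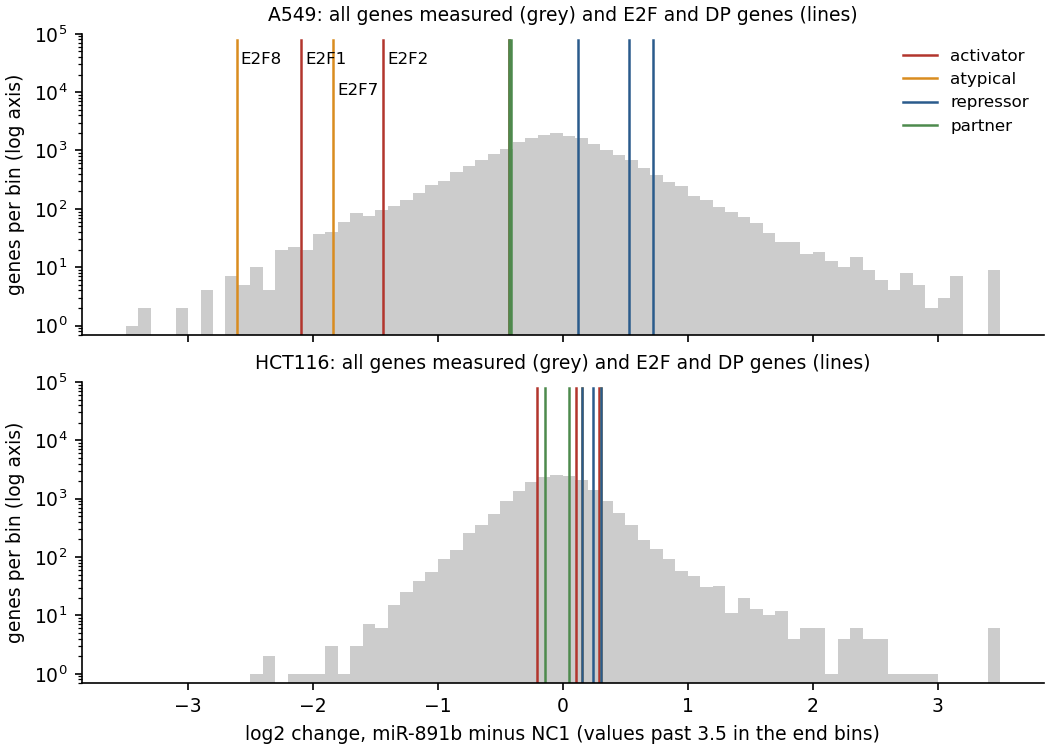
Grey bars count all genes measured in A549 (upper panel) or HCT116 (lower panel) by log2 change, miR-891b minus NC1, on a log axis, and lines mark the 10 family members by role. In A549 the 4 labelled genes lie in the lower tail and the 3 repressors to the right of the centre, and the E2F3 line is covered by those of the partners. In HCT116 all 10 lie between -0.21 and 0.31.

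The lines were also compared without the microRNA. With NC1, 8 of the 10 genes were lower in A549 than in HCT116, and 4 were at least 2-fold lower. Of 19218 genes, 16.2% were at least 2-fold lower and 11.1% at least 2-fold higher. The median difference over all these genes was itself below 0, at -0.10, beside -0.51 for the 10. With normexp and quantile normalization only E2F2 was past 2-fold lower, and with quantile normalization TFDP1 was no longer past it. The A549 minus HCT116 differences were -1.49 for E2F2, -1.19 for E2F3, -1.16 for TFDP2 and -1.07 for TFDP1. E2F4 followed at -0.73, E2F6 at -0.28, E2F7 at -0.19 and E2F8 at -0.13. E2F1 (0.36) and E2F5 (0.67) were higher in A549. By their other probes, E2F3 differed by -0.45, within 2-fold, and TFDP1 by -1.36. The genes furthest apart between the lines with NC1 were therefore not those with the largest changes under miR-891b, apart from E2F2. With miR-891b the same differences were -3.03 for E2F2, -2.90 for E2F8, -2.34 for E2F7 and -1.52 for E2F1.

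A limma model over 22711 genes then took the lines as replicates of the transfection, with line as a term, which left 1 residual degree of freedom. After Benjamini-Hochberg adjustment 0 genes (0%) were under 0.05 in limma, and 1214 (5.35%) were under it before adjustment. No member was among either, and the adjusted p of the 10 members in limma ran from 0.793 to 0.967. The mean change over both lines was -1.23 ± 0.71 (SE) for E2F8, -1.15 ± 0.52 for E2F1, -0.76 ± 0.57 for E2F7 and -0.66 ± 0.44 for E2F2, with limma adjusted p of 0.793, 0.793, 0.817 and 0.800. E2F6 had the highest mean change, 0.52 ± 0.25, with a limma adjusted p of 0.793. The 1 residual degree of freedom is the difference between the lines in the change. The SE combines that difference with a variance that limma estimates over all genes, so it is not the gene's own line difference alone. For E2F4, whose changes in the lines nearly matched, it was 0.23. It holds no spread between replicate arrays, so a high p does not speak against a change in 1 line. E2F1, E2F4, E2F5, E2F6 and TFDP2 moved the same way in both lines, and the other members did not. Of these others, TFDP1 changed in HCT116 by only 0.05, below the median SD between replicate spots (0.06). Whether the lines differ in their change could not be tested with 1 array per group.

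Pocket proteins bind E2F proteins and repress their targets. RB1, the retinoblastoma protein, changed by -0.19 in A549 and -0.08 in HCT116. RBL1, which encodes p107 and is an E2F target itself, had levels of -0.22 and -0.22 in HCT116 and of 0.25 and -1.26 in A549, so only the A549 miR-891b array was low, with a change of -1.51. RBL2, which encodes p130, changed by -0.11 in A549 and -0.53 in HCT116. Of 3 pocket protein genes, 1 was at least 2-fold lower in A549 and 0 of 3 in HCT116, beside 5.57% and 0.843% of all measured genes. With normexp and quantile normalization the A549 count was 0.

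The MuvB core joins E2F4 and p130 in the DREAM repressor and joins MYBL2 and FOXM1 later in the cycle. Among these 7 genes, A549 had 4 at least 2-fold lower and HCT116 had 0, beside 5.57% and 0.843% of all measured genes. FOXM1, an activator of mitotic genes, changed by -1.64 in A549 and -0.14 in HCT116, and MYBL2, which hands the MuvB core from repression to activation, by -1.59 and -0.14. LIN9, a core subunit, changed by -1.56 and -0.01, while its dimmer probe changed by -0.76 and 0.10. The histone chaperone RBBP4 changed by -1.44 and -0.59, in the same order. The other core subunits were within 2-fold in A549, with -0.72 for LIN54, -0.50 for LIN52 and 0.11 for LIN37. Their HCT116 changes were 0.08, 0.02 and -0.50. On 1 array each, stray signal covered the area of the RBBP4 and the LIN37 spot. The 3 RBBP4 probes outside such areas changed by -1.15, -1.09 and -0.90 in A549.

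The partners of E2F6 in its repressor complex showed 0 of 10 genes past 2-fold in either line, with medians of -0.04 in A549 and -0.01 in HCT116. Of all measured genes, 5.57% were at least 2-fold lower and 4% at least 2-fold higher in A549. In HCT116 these shares were 0.843% and 1.16%, so 0 of 10 differs little from the shares over all genes. In A549 CBX3, a chromatin-binding HP1 protein, was lowest at -0.82, the methyltransferase EHMT2 stood in the middle at -0.02, and MAX, the dimer partner of MGA in this complex, was highest at 0.83. In HCT116 the range ran from -0.38 for EHMT2 to 0.31 for L3MBTL2, with RING1 in the middle at 0.00. With quantile normalization 1 gene was past 2-fold higher in A549.

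Of the genes for turnover of E2F proteins, SKP2, the ubiquitin ligase subunit that targets E2F1, had levels of 0.63 and 1.09 in HCT116 and of 0.25 and -1.03 in A549. Its change was 0.46 in HCT116 and -1.29 in A549, in opposite directions. CCNF, which encodes cyclin F, changed by -0.09 and -1.03 and FZR1, an activator of the anaphase-promoting complex, by 0.30 and 0.25. In A549 2 of the 3 were at least 2-fold lower and in HCT116 0, beside 5.57% and 0.843% of all measured genes. With median scaling the A549 count was 1, and with normexp and quantile normalization it was 0.

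Among the G1 cyclins and kinases that act upstream of E2F release, 7 of 8 genes were measured, and CCND2 was at background on every array. In A549 3 of the 7 were at least 2-fold lower, namely CCND1 (-1.61), CCNE2 (-1.48) and CDK2 (-1.22), the last pair named after their values were seen. The share of all measured genes at least 2-fold lower was 5.57% in A549 and 0.843% in HCT116. The CDK2 spot lay in an area of stray signal on 1 array. CCND1 encodes the D-type cyclin that starts phosphorylation of the retinoblastoma protein. CCNE1 stood in the middle at -0.37, and CDK4 was highest at 0.11. In HCT116 0 were past 2-fold, from -0.46 for CCND1 through 0.26 for CCND3 to 0.79 for CDK6. With normexp and quantile normalization the A549 count was 1.

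The G1/S targets are genes for DNA replication and nucleotide supply that E2F proteins are known to control. In A549 22 of 26 were at least 2-fold lower and 0 higher, all 26 had a change below 0, and the median was -1.59. Over all measured genes in A549, 5.57% were at least 2-fold lower, 55.6% were below 0, and the median was -0.06. The list was drawn up with earlier results of these data known. The genes within 2-fold, named after their values were seen, were EZH2 (-0.99), RRM1 (-0.97), CHEK1 (-0.56) and SLBP (-0.49). MCM2, a subunit of the replicative helicase, was lowest, with levels of 3.37 with NC1 and 0.98 with miR-891b and a change of -2.397. RRM2, the regulated subunit of ribonucleotide reductase, stood in the middle at -1.57. In HCT116 0 of 26 were past 2-fold, the median was -0.04, and 14 changes were below 0 and 12 above. All measured genes in HCT116 had a median of -0.04, with 0.843% at least 2-fold lower and 55.5% below 0. The HCT116 changes ran from -0.63 for CDC6, a loader of the helicase, through -0.03 for SLBP, which binds histone mRNA, to 0.44 for the phosphatase CDC25A. The spots of MCM6, CDCA7 and SLBP were in stray areas on 1 array each, and a dimmer CDCA7 probe outside them changed by -0.57 in A549.

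Of 5 apoptosis genes known as E2F1 targets, 0 were past 2-fold in A549 and 1 was in HCT116, where it was higher. Over all measured genes, 5.57% were at least 2-fold lower and 4% higher in A549, and 0.843% and 1.16% in HCT116. PMAIP1, which encodes NOXA, had levels of 3.69 and 5.15 in HCT116 with NC1 and miR-891b and of 2.18 and 2.54 in A549. Its change was 1.46 in HCT116 and 0.36 in A549. BBC3, which encodes PUMA, changed by -0.48 in HCT116 and 0.73 in A549, and BCL2L11, which encodes BIM, by 0.69 and 0.32. Dimmer BCL2L11 probes, each in a stray area on 1 array, changed by 0.89 and 0.48 in HCT116 but by 0.04 and 0.11 in A549. TP73, a p53 family member, changed by 0.31 and -0.18 and APAF1, the apoptosome scaffold, by -0.25 and -0.23, with HCT116 first. The medians were 0.32 in A549, which is the value of the brightest BCL2L11 probe, and 0.31 in HCT116. In A549 2 of the 5 were below 0, beside 55.6% of all measured genes. The TP73 spot lay in a stray area on 1 array.

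**Figure D4:**
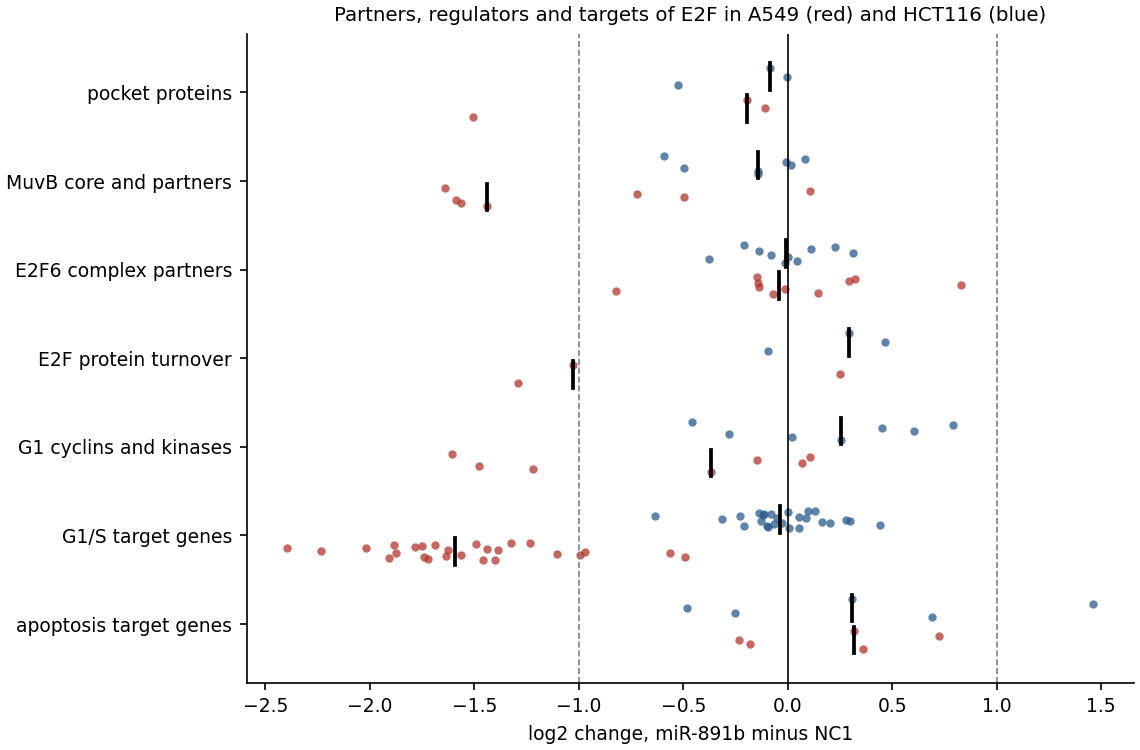
Each point is 1 gene well above background on all 4 arrays, the x axis gives its log2 change, miR-891b minus NC1, in A549 (red) or HCT116 (blue), black bars are medians, and dashed lines mark 2-fold. The A549 points of the G1/S targets lie almost all beyond the lower line around a median of -1.59, while the HCT116 points of the same genes centre on -0.04.

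Genes with the most similar levels over the 4 arrays were found by the Euclidean distance between log2 levels, each centred on its gene's mean, among 13400 named genes well above background on all arrays. Nearest to E2F1 were CENPW, a kinetochore gene (distance 0.08), KIAA0101, which encodes a PCNA-binding protein (0.08), and GINS4, a replication helicase gene (0.10). They changed by -2.04, -2.19 and -2.05 in A549 and by -0.20, -0.16 and -0.09 in HCT116. Nearest to E2F8 were DEPDC1 (0.25), HMGB1, a chromatin protein (0.26), and the hyaluronan receptor HMMR (0.27), with A549 changes of -2.50, -2.45 and -2.33. Their HCT116 changes were -0.003, -0.17 and 0.19, beside 0.15 for E2F8. Nearest to E2F4 were C1orf159 (0.05), DCUN1D2 (0.05) and CLK2 (0.06). They changed by 0.13, 0.10 and 0.10 in A549 and by 0.11, 0.09 and 0.11 in HCT116. Only 4 arrays enter each distance, and the DEPDC1 spot lay in an area of stray signal on 1 array.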

How the data were processed

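Scans were quantified with Agilent Feature Extraction 11.5.1.1, per the submitters' processing notes, with background and spatial trends corrected array by array, per the file headers. The deposited scanner files hold intensity values with no scaling between arrays, and their probe coordinates are on hg19, per the file headers. Marks of 0 or 1 per spot (another unit) for outliers, saturation and signal well above background are also deposited. How the log2 values in the authors' processed table were made is not stated. Their median absolute difference from the main values here was at most 0.0069 on any array, with column medians of -3.80 to -3.60, and they served as an alternative.

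Outlier spots were left out, log2 signals averaged per probe and the 75th percentile over gene probes subtracted. The probe with the highest mean stood for its gene, and a gene counted as measured in a line where both arrays had that probe well above background. Changes were called at 2-fold. The additive model, over genes well above background on at least 2 arrays, used limma 3.58.1 in R 4.3.3 with Benjamini-Hochberg adjustment and was tested on simulated data. Other steps used Python 3.11.15 (pandas 2.3.3, numpy 2.4.6). A spot was in an area of stray signal where at least 10% of its neighbours within 10 rows and columns that are dim elsewhere were bright. All accessions of the 15 member probes matched RefSeq (GRCh38.p14) under the same symbol. All genes of lists of 7 or fewer were named, and of longer lists the lowest, middle and highest in each line. Some genes of the apoptosis list are not reported here and were left out of its counts. The members and lists were chosen with earlier results of these data known. The number of arrays limits the precision.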

Additional observations from a re-analysis of the deposited data

Results flagged for a closer look

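Several members had a change of opposite sign in the lines. For TFDP1 the HCT116 change of 0.05 was below the median SD between replicate spots (0.06), so its sign there is not settled. The A549 change minus the HCT116 change was -2.76 for E2F8, -2.15 for E2F7, -1.54 for E2F2, -0.72 for E2F3 and -0.46 for TFDP1. For the median of the 10 genes it was -0.58. None of these differences was tested, with only 1 array in a group.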

How the results depend on the processing

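The alternatives were normexp with quantile normalization, quantile normalization, median scaling, the authors' log2 values, the mean over probes, no filter on dim probes, probes outside stray areas and other fold limits. Each of the 20 member changes (10 genes in 2 lines) kept its direction under all 6 or 7 alternatives that gave it a value, and E2F2 had none outside stray areas. Several of these could hardly change a member. No filter and probes outside stray areas gave back the main value wherever they gave one. The mean over probes did so for the 6 genes with 1 probe, and the authors' values nearly equalled the main ones. Only the quantile settings and median scaling could move every member. The A549 count of 4 became 3 outside stray areas and at 3-fold, and the HCT116 count of 0 stayed at 0. The members' A549 median was -0.29 under normexp with quantile normalization (the cause was not tested). Over all genes, the number at least 2-fold lower or higher went from 1189 and 854 to 429 and 335 in A549 and from 161 and 221 to 12 and 27 in HCT116 under that setting, and to 3081 and 2934 and to 1434 and 2788 with no filter on dim probes. With no filter, 6 genes passed in the additive limma model, none of them a member. Before adjustment 3686 (8.51%) were under 0.05 in limma there, E2F1 and E2F8 among them. Under normexp with quantile normalization 1042 (4.59%) were, with E2F6 as the only member. The members' adjusted p in limma ran from 0.489 to 1.00 over the settings. All 6 list counts above 0 moved by over 1.5 times under at least 1 alternative, and at 3-fold the G1/S count in A549 was 13. With NC1, 4 members were at least 2-fold lower in A549 than in HCT116 in the main values and with the authors' values, 3 with quantile normalization and 1 with normexp and quantile normalization. With 1 array per group, no replicate could be left out. The additive model already sets miR-891b against NC1 within each line, and the labels carry no replicate numbers for another pairing.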

Other observations

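TFDP3, a DP family gene outside the set described, was well above background on all 4 arrays at low levels, with -2.08 and -1.46 in HCT116 and -2.32 and -3.48 in A549, NC1 first. The 7 probes for long noncoding RNAs named after E2F3, E2F7 or TFDP2 were not well above background on any array.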
